A study of Mus musculus with 4 samples.

Results

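Promoter peaks were the peaks of a Bmal1 ChIP-seq experiment in mouse retina that the authors' annotation placed in a promoter, the region around a transcription start site (TSS). They made up 519 of the 94075 peaks in 12 lists and were annotated to 414 distinct genes. The narrow lists held 140 of them and the broad lists 379. The retinas were collected at postnatal day 5 (P5) and postnatal day 3 (P3) at zeitgeber time 4, early in the light phase. The labels give no genotype, sex or treatment for these mice, and the Methods name none for this experiment. P5 was represented by 2 libraries (replicates 2 and 3) and P3 by 2 others (replicates 4 and 5), and all were called against the same single input library. Peaks were called in single libraries and in the pooled libraries of an age, in a narrow mode that gives all peaks of a list the same width and in a broad mode. The pooled lists came from the same reads as the single libraries, so they are no further replicates. Nothing in the labels says that the libraries of an age came from separate animals, so p values measure only the spread between these libraries. Whole retina was used, in which a peak cannot be assigned to neurons, glia or vessels. The catalogue number of the Bmal1 antibody differs between the labels and the Methods, and which of them applies to these libraries is not settled here.

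Bmal1 is a transcription factor that pairs with CLOCK and binds DNA at E-boxes, short palindrome-like sites with CACGTG as the best-known form. Many of its known targets, such as the Period and Cryptochrome genes, carry E-boxes close to the TSS, and their proteins feed back on Bmal1 and CLOCK to make a daily rhythm. The promoter is thus where occupancy of a clock factor is most easily tied to a gene.

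The sequences of 7 narrow promoter peaks are given here as examples. The peaks at Mgarp, Olfr1037, Gfra4 and Fzd6 were called in pooled reads and again in a single library. Those at Rcan3, Abcc10 and Psmb2 hold CACGTG inside the called peak. Mgarp and Olfr1037 are from the pooled P5 list, Gfra4, Fzd6 and Rcan3 from the pooled P3 list, and Abcc10 and Psmb2 from P3 replicate 4. Coordinates are GRCm38 and each sequence runs 5′ to 3′ on the strand of its gene, from RefSeq's GRCm38.p6 assembly. None of the intervals overlaps an annotated exon. Capitals mark a flexible E-box, which is CACGTG itself or one of its relatives, the hexamer CACTTG, the hexamer CATGTG and the hexamer CATTTG, on either strand.
Mgarp (chr3:51396604-51396742, - strand): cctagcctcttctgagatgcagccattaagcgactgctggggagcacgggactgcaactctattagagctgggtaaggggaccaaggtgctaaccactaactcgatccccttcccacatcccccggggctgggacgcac
Olfr1037 (chr2:86086486-86086624, - strand): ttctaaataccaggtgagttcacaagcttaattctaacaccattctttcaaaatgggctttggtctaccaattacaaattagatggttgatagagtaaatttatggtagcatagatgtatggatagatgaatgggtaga
Gfra4 (chr2:131042707-131042871, - strand): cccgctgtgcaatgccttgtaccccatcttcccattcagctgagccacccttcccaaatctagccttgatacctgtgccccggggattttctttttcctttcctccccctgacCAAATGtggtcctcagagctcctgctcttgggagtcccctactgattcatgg
Fzd6 (chr15:39005809-39005973, + strand): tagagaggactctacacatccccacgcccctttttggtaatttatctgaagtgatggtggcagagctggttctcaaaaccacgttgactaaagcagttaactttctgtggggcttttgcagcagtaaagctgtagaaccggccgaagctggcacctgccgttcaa
Rcan3 (chr4:135434550-135434714, - strand): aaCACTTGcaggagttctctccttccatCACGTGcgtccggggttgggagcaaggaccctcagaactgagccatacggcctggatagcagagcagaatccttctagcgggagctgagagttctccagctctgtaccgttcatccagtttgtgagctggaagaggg
Abcc10 (chr17:46328839-46328983, - strand): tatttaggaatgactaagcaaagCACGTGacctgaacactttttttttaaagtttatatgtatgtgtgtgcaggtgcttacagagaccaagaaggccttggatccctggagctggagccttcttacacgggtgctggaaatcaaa
Psmb2 (chr4:126677277-126677421, + strand): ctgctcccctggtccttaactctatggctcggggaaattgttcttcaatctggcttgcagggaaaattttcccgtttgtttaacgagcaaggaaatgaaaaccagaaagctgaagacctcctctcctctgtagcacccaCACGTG

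A second set shows broad promoter peaks called in more than 1 library. Of the stretch that the libraries share, the central 200 bases are given in the same way. Olfr1098 was shared by both P5 libraries, Reg3b by both P3 libraries, and Hoxb3 by P5 replicate 3 and P3 replicate 4.
Olfr1098 (chr2:86923627-86923826, - strand): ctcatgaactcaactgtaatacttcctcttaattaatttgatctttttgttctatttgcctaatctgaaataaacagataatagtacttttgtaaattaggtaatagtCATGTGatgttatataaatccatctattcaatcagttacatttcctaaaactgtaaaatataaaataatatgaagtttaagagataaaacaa
Reg3b (chr6:78370627-78370826, + strand): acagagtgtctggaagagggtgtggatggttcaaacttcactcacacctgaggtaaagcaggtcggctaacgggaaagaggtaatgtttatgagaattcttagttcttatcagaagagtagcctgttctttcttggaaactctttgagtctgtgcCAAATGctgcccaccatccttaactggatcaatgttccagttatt
Hoxb3 (chr11:96322642-96322841, + strand): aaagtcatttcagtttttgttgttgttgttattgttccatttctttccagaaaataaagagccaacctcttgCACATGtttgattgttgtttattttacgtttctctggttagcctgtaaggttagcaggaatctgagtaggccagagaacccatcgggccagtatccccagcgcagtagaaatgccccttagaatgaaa

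Rcan3 carried CACTTG and CACGTG within a short distance of each other, and Abcc10 and Psmb2 carried CACGTG alone. Gfra4 held a single CATTTG, read here from the other strand. No flexible E-box is in the letters of the peaks at Mgarp, Olfr1037 and Fzd6. The stretch at Olfr1098 held CATGTG. Reg3b held CATTTG in its stretch and Hoxb3 held CATGTG, both read from the other strand.

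Promoter peaks were few in every list. In the narrow lists they were 7 of 486 peaks in the pooled P5 list (1.44%, 95% Clopper-Pearson interval 0.581 to 2.95) and 27 of 3625 in the pooled P3 list (0.745%, 0.491 to 1.08). Among single libraries there were 2 of 200 narrow peaks in P5 replicate 2, 11 of 1336 in P5 replicate 3, 88 of 9543 in P3 replicate 4 and 5 of 944 in P3 replicate 5. In the broad lists promoter peaks were 21 of 4783 in the pooled P5 list (0.439%, 0.272 to 0.67) and 95 of 19646 in the pooled P3 list (0.484%, 0.391 to 0.591). The single libraries gave 25 of 7435 broad peaks in P5 replicate 2, 56 of 9915 in P5 replicate 3, 133 of 25380 in P3 replicate 4 and 49 of 10782 in P3 replicate 5. P3 replicate 4 thus held the most promoter peaks of either kind, and also the longest lists. For scale, windows of 1000 bp upstream to 100 bp downstream of every curated RefSeq TSS cover 1.19% of the assembled bases. By these windows, which are not the authors' annotation, the promoter share was 0.636% to 2% in the narrow lists and 0.417% to 0.605% in the broad lists. Intervals cover counting error only.

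**Figure D1:**
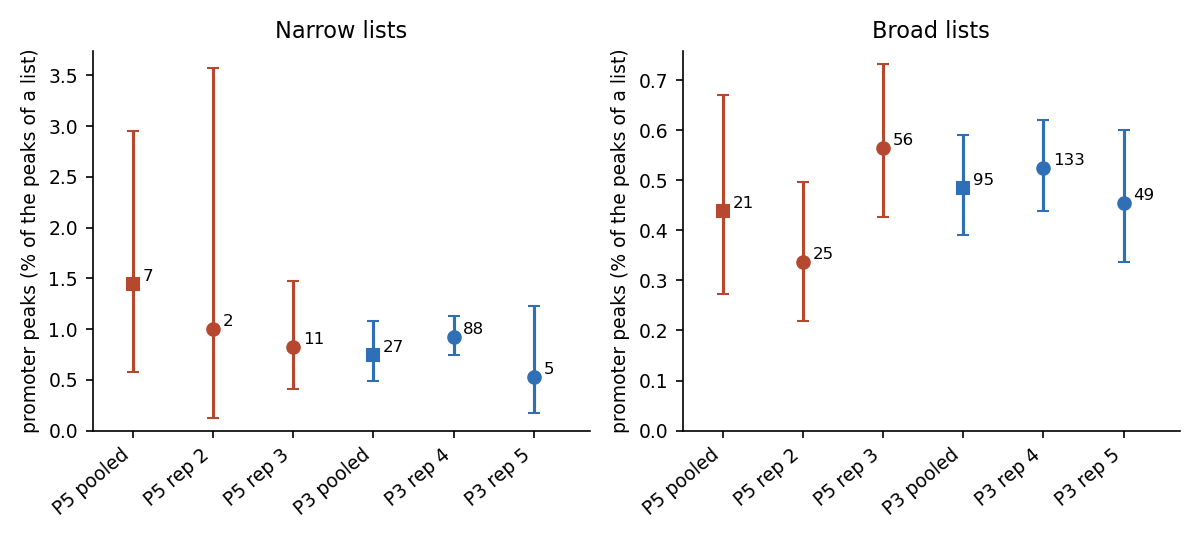
Promoter peaks as a percent of all peaks of each narrow list (left) and broad list (right), P5 in red and P3 in blue, with squares for pooled lists, circles for single libraries, 95% Clopper-Pearson intervals as bars and the number of promoter peaks beside each point. The share lies between 0.53% and 1.44% in the narrow lists and between 0.336% and 0.565% in the broad lists, and the libraries of P5 and P3 overlap in both.

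The promoter share of the ages overlapped. In the narrow lists it averaged 0.912% ± 0.125 in P5 libraries and 0.726% ± 0.278 in P3 libraries (SD, n = 2 each), a difference of 0.186 percentage points (exact two-sided permutation test, p = 0.667). In the broad lists it averaged 0.451% ± 0.162 in P5 libraries and 0.489% ± 0.0492 in P3 libraries, a difference of -0.0387 percentage points (exact two-sided permutation test, p = 1). With 2 libraries against 2, this test cannot give a p under 0.333. The sign of the narrow difference turned without P3 replicate 5 (-0.0105) and that of the broad difference without P5 replicate 2 (0.0756). Read from the steps of the peak scores, as explained below, the libraries held 55.2 to 68.3 M tags each. The Reporting Summary states a lower sequencing depth, and this difference is not settled here. In the narrow lists of single libraries, a longer list held more promoter peaks.

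The pooled narrow list of P5 held 7 promoter peaks, all with scores in a small range. The score is read here as tags in a peak per 10 M tags, since scores come in whole multiples of a step. The caller, MACS2 or HOMER, is not settled by the sources, and tag numbers rest on this reading. The score was 2.07 to 2.23 for these 7, or 27 to 29 tags. The highest was at 4930597G03Rik, a noncoding RNA gene, at Mgarp, a mitochondrial protein gene, and at Snord35a, a small nucleolar RNA gene, each with 29 tags. The Snord35a peak lies within Rpl13a, a ribosomal protein gene, and overlaps an exon of it. A630073D07Rik, the noncoding B130024G19Rik and Nmnat3, which makes an enzyme of NAD synthesis, had 28 tags each, and the olfactory receptor gene Olfr1037 had 27. The B130024G19Rik peak lies inside a transcript of Nr2f2, which makes a nuclear receptor. The best of the 7 ranked 205 among the 486 peaks of the list.

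Of these 7 peaks, 3 overlapped a narrow peak of a P5 library by at least 1 bp (42.9%, interval 9.9 to 81.6), against 24.7% of all peaks of the list. Mgarp was found again in P5 replicate 2 (score 3.55, 22 tags), and its center there was at -156 bp from the TSS, against -126 bp in the pooled list. Olfr1037 and Snord35a were found again in P5 replicate 3, with 23 and 19 tags. None of the 7 was called in both P5 libraries, against 0.206% of all peaks, and none overlapped a P3 library, against 1.44%, so that 7 peaks are too few to tell these counts of 0 from the rest of the list. The other 4 were called only in pooled reads. In the upper 50% of the scores 1 of 3 recurred (33.3%), against 26.1% of all such peaks.

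The pooled narrow list of P3 held 27 promoter peaks with scores of 2.15 to 3.47, or 26 to 42 tags. The highest was at Gphb5, which makes the beta subunit of the glycoprotein hormone thyrostimulin. It had 42 tags, ranked 44 among 3625 peaks and was centered 35 bp downstream of the TSS. Gfra4, a receptor subunit for a neurotrophic factor of the GDNF family, had 38 tags, and Rcan3, a regulator of the phosphatase calcineurin, had 37. Pced1a and Irf2, which makes an interferon regulatory factor, had 36 each. Irf2 is named by the promoter annotation, while the nearest TSS belongs to the noncoding gene Gm16675, inside which the peak lies. Fzd6, a Wnt receptor gene, Pet117, a mitochondrial assembly factor gene, the pseudogene 9030619P08Rik and Pcdhga7, a clustered protocadherin gene, had 34 each. Most of these centers were far from the TSS, with 17 of the 27 between 500 and 1000 bp upstream.

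The remaining 18 members at P3 had 26 to 33 tags. They were Rgs3, which limits G protein signaling, Igfl3, Acyp1, Spinkl, Hexdc, Il11ra1, which makes an interleukin receptor chain, Rassf1, a tumor suppressor gene, the noncoding 1500009C09Rik, Abcb1a, which makes a drug transporter of the blood-brain barrier, Zbtb12, Gm867, BC147527, Lypd10, the defensin gene Defa30 and the olfactory receptor genes Olfr1507, Olfr214, Olfr470 and Olfr617. The Rassf1 peak overlaps an exon of its neighbor Zmynd10, and those at Gphb5, Hexdc and BC147527 overlap an exon of the gene itself. The Abcb1a peak was placed in a promoter by the authors' annotation, but the matching start site in GRCm38.p6 is elsewhere in the gene.

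Of the 27 peaks, 9 overlapped a narrow peak of a P3 library (33.3%, interval 16.5 to 54), against 27.4% of all peaks of the list. They were Gphb5, Gfra4, Pced1a, Irf2, Fzd6, 9030619P08Rik, Pet117, Acyp1 and Olfr214. All 9 were found in P3 replicate 4, which has 9543 narrow peaks, and 0 in P3 replicate 5, which has 944. This split was not counted for all peaks of the list, so it does not set promoter peaks apart. None of the 27 was in both P3 libraries (0.331% of all peaks) and none overlapped a P5 library (0.221% of all peaks). Rcan3, with CACGTG, was among the 18 found in none of the 4 narrow lists of single libraries. Of these 18, Pcdhga7 overlapped a broad peak of both P3 libraries and Olfr617 one of P3 replicate 5. The recurring peaks had a median score of 2.81 and the others one of 2.4. Among the pooled peaks in the upper 50% of the scores, 8 of 13 recurred (61.5%), against 33.8% of all such peaks. The rate for all peaks lies inside the interval of the promoter peaks at both ages.

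**Figure D2:**
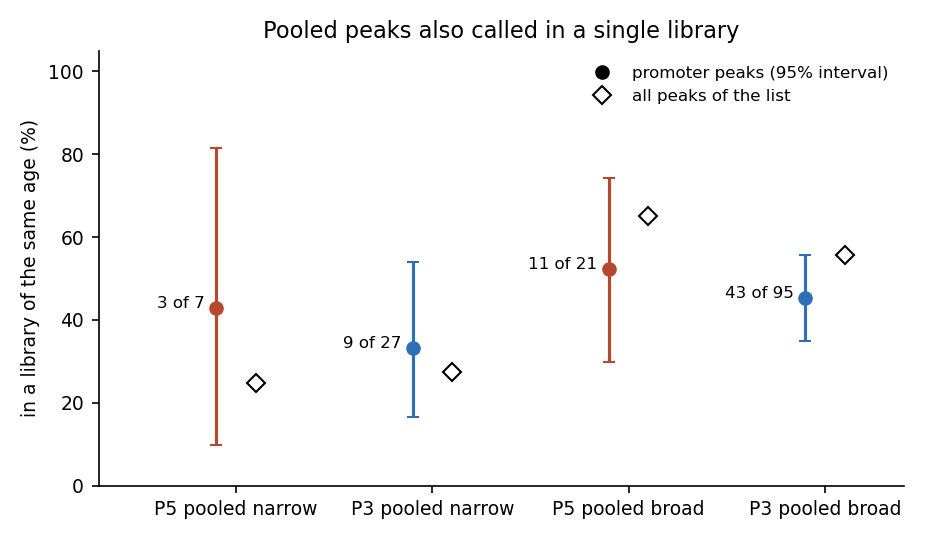
Percent of pooled promoter peaks (filled circles, P5 in red and P3 in blue, 95% Clopper-Pearson intervals) and of all peaks of the same pooled list (open diamonds) that overlap a peak of a single library of the same age by at least 1 bp. The diamond lies inside the interval in the narrow lists of both ages and in the broad P5 list, and at the upper end of it in the broad P3 list (43 of 95, against 55.7% of all peaks).

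Among the pooled broad promoter peaks, 11 of 21 at P5 overlapped a broad peak of a P5 library (52.4%, interval 29.8 to 74.3), against 65.2% of all peaks. All 11 were found in replicate 3 and 2 of them, Olfr1098 and Tmprss3, also in replicate 2, against 3.32% of all peaks in both. At P3, 43 of 95 overlapped a broad peak of a P3 library (45.3%, interval 35 to 55.8), against 55.7% of all peaks. Of these, 32 were in replicate 4, 12 in replicate 5 and 1 in both, against 2.61% of all peaks in both. At both ages the library with more of these overlaps also has the longer broad list. The split by library was not counted for all peaks. In libraries of the other age, 4 of the 21 P5 peaks were found, against 8.99% of all peaks, and 6 of the 95 P3 peaks, against 4.37% of all peaks. In none of the broad lists of the 4 libraries were 10 of the 21 and 50 of the 95. This was not counted for all peaks of these lists, so it gives no contrast with them. In the upper 50% of the scores, 7 of 9 at P5 (77.8%) and 23 of 45 at P3 (51.1%) were in a library of the same age, against 63.6% and 51.4% of all such peaks.

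The 10 highest-scoring pooled broad promoter peaks of P5 were at Olfr1098 (score 5.22, 68 tags), Olfr1275 (63 tags), Aadacl2fm3 (61 tags), Mir1843b and Tmprss3 (59 tags each), the vomeronasal receptor pseudogene Vmn2r-ps159 (58 tags), Olfr965 (56 tags), Cped1 (55 tags), Mir6401 (53 tags) and Abca12, a lipid transporter gene (52 tags). Tmprss3 makes a membrane serine protease. The 10 highest of P3 were at Olfr774 (score 6.87, 83 tags), Olfr735 and Olfr506 (82 tags each), Olfr589 (81 tags), Mir872 (76 tags), Gm1553, Morc2a and Olfr196 (66 tags each), Lce6a, a gene of the skin barrier (65 tags), and N4bp2 (64 tags). Olfactory receptor genes thus held 3 of the 10 places at P5 and 5 of the 10 at P3. They held 42.9% and 34.7% of all promoter peaks of these 2 lists. Olfr506 also had the highest-scoring promoter peak of P3 replicate 4 (score 13.4, 74 tags), which ranked 51 among the 25380 broad peaks of that library.

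Promoter peaks of different libraries seldom met. Of the 106 narrow promoter peaks of single libraries, 0 overlapped a narrow peak of another library (upper limit of the interval 3.42%), against 0.507% of all narrow peaks. Of the 263 broad promoter peaks, 22 did (8.37%, interval 5.32 to 12.4), against 7.11% of all broad peaks. Without P5 replicate 3 the broad rate was 1.45% (3 of 207), against 5.07% of all broad peaks of the other 3 libraries. No gene had a promoter peak in 3 or 4 libraries, while 10 had one in 2 libraries, 324 in 1 library and 80 only in pooled lists.

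The 10 genes were all from broad lists. Tmprss3 and Olfr1098 had peaks in both P5 libraries, with 29 and 31 tags at Tmprss3 and 30 in each library at Olfr1098. Reg3b, which makes an antimicrobial lectin, had peaks in both P3 libraries, with 25 tags in replicate 4 and 31 in replicate 5. The other 7 had a peak in a library of each age. At Hoxb3, a homeobox gene of body patterning, there were 35 tags in P5 replicate 3 and 32 in P3 replicate 4. N4bp2 had 33 in P5 replicate 3 and 37 in P3 replicate 4, and Dcdc2c, a doublecortin domain gene, had 42 in P5 replicate 3 and 28 in P3 replicate 4. Vmn1r37 had 35 tags in both of these libraries, and Vmn1r77 had 29 in P5 replicate 3 and 27 in P3 replicate 4. Olfr663 had 45 tags in P5 replicate 3 and 32 in P3 replicate 5, and Vmn2r-ps159 had 36 in P5 replicate 3 and 40 in P3 replicate 5. P5 replicate 3 took part in 9 of the 10 genes. Of its broad promoter peaks, 16.1% overlapped a broad peak of another library (interval 7.62 to 28.3), against 8.24% of all its broad peaks. These rates were 12% against 9.79% in P5 replicate 2, 5.26% against 5.16% in P3 replicate 4 and 6.12% against 8.83% in P3 replicate 5. In each library the rate for all peaks lies inside the interval of the promoter peaks. Which libraries and ages met was not counted for all peaks, so the 9 and the 7 do not set promoter peaks apart. The parts shared by the libraries were 141 to 501 bases long. In addition, a promoter peak at Pcdhga7 in P3 replicate 4 (51 tags) and one at Gm13629 in P5 replicate 2 (32 tags), with Scn1a as the nearest gene, overlapped a peak of the other library of the same age that was not annotated to a promoter.

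Single libraries held further promoter peaks, which were named after their values were seen. P5 replicate 2 had its other narrow promoter peak at Id3 (23 tags), which makes an inhibitor of basic helix-loop-helix proteins. P5 replicate 3 had peaks at Cpb1 (24 tags), Septin14 and Tmem43 (23 each), Olfr1079 (22), Ifi213, Fbxo30 and Trim55 (21 each), Mir7021 and Hif3a (20 each), the last of which makes a hypoxia-inducible factor. P3 replicate 5 had peaks at Hsd17b3 (24 tags), Dio2, which makes the deiodinase that activates thyroid hormone, Cd200r4 and Ctrl (23 each) and Sulf2 (22). In P3 replicate 4 the 88 narrow promoter peaks had 15 to 28 tags, with Irf2 the highest.

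Of all 26180 genes with a curated TSS, 1.57% had a promoter peak in any of the 12 lists, and at this share fewer than 1 member would fall in a list of the sizes that follow. None of the 37 genes of the circadian clock list, 36 of which have a curated TSS, had a promoter peak in any of the 12 lists. Neither did any of the 20 semaphorin genes, which make guidance cues of axons and vessels, or of the 36 genes of the angiogenesis list. These counts of 0 are near the share over all genes and set none of the lists apart.

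Olfactory receptor genes were the largest family. They held 110 of the 414 genes, in 146 of the 519 peaks (28.1%), and they are 4.3% of the 26180 genes with a curated TSS. Totals of peaks over all lists join pooled and single-library lists, so the same place can be counted more than once. In the broad lists they took 9 of 21 promoter peaks in pooled P5 (42.9%) and 33 of 95 in pooled P3 (34.7%), and 28% to 34.7% in the single libraries. In the narrow lists they took 1 of 7 in pooled P5 and 4 of 27 in pooled P3, and 12 of 88 in P3 replicate 4. Vomeronasal receptor genes, which like the olfactory receptors lie in large clusters of related copies, had 31 peaks at 21 genes (5.97%) and are 1.36% of the genes with a curated TSS. Of these 31 peaks 30 were broad (7.92% of broad promoter peaks) and 1 was narrow (0.714%). Few members were repeated sequence, judged here by exact copies of short words only. A median of 2 or more copies of the 31-base words around the center was found in the genome for 7 of the 519 peaks, among them Olfr1371 with 8.5 and Olfr17 with 2. By list this was 0% to 4.76% of promoter peaks, against 0.777% to 5.05% of other peaks, so it does not set promoter peaks apart.

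**Figure D3:**
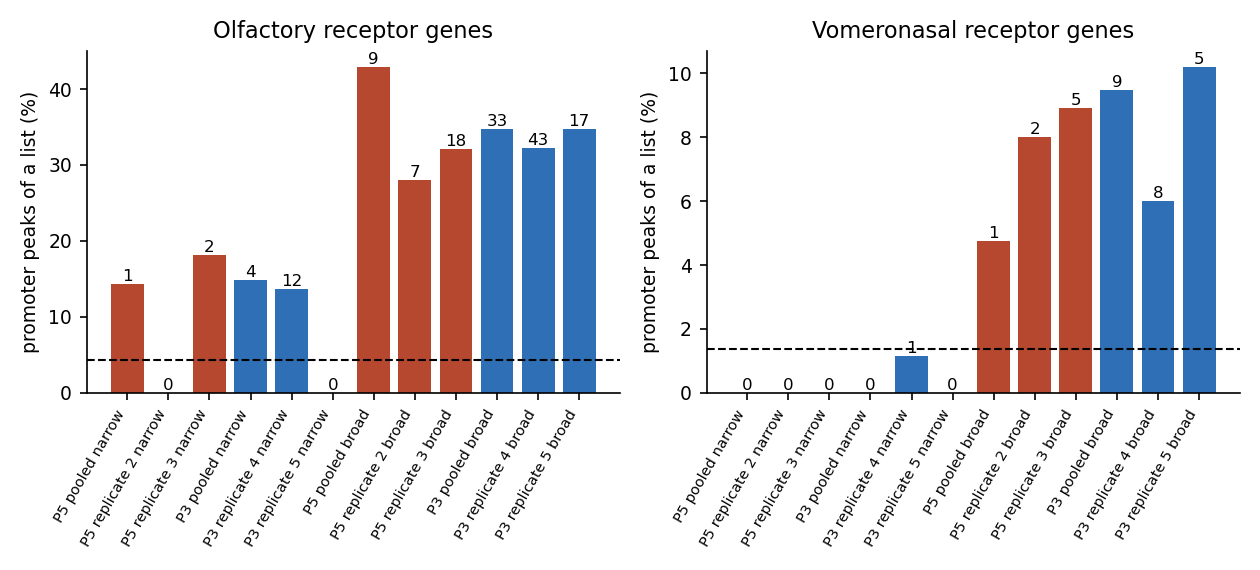
Percent of the promoter peaks of each list that were annotated to olfactory receptor genes (left) and vomeronasal receptor genes (right), P5 in red and P3 in blue, with the number of peaks above each bar and a dashed line at the share of the family among genes with a curated TSS (4.3% and 1.36%). Bars of the 6 broad lists stand above the dashed line in both families. In the narrow lists, P5 replicate 2 and P3 replicate 5 have 0 olfactory receptor peaks. P3 replicate 4 has the only vomeronasal receptor peak of the narrow lists (1.14%), under the dashed line.

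Promoter peaks were richer in GC than the other peaks of the same library. In the 200 bp around the center of narrow peaks, GC content was 52.2% in the 2 promoter peaks of P5 replicate 2, against 38.3% in its other peaks, and 43.9% against 39.7% in P5 replicate 3. It was 43.4% against 38.1% in P3 replicate 4 and 43.6% against 36.3% in P3 replicate 5. The mean difference was 7.7 ± 4.36 percentage points (SD, n = 4 libraries), positive in 4 of 4. In broad promoter peaks GC content was 36%, against 33.6% in other peaks, in P5 replicate 2 and 37.8% against 35% in P5 replicate 3. It was 37.2% against 34.7% in P3 replicate 4 and 34.4% against 32.5% in P3 replicate 5. The mean difference was 2.41 ± 0.374 percentage points, again positive in 4 of 4. Both gave p = 0.125 in the exact two-sided sign-flip permutation test, the smallest that 4 libraries allow, and an adjusted p of 0.375 (Benjamini-Hochberg over 6 tests).

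Against all curated promoters, however, the members were poor in GC. At the same offsets from the TSS, the 31603 curated promoter windows averaged 48.2% to 54.6% GC for the narrow lists and 47.9% to 49.3% for the broad lists. The 2 peaks of P5 replicate 2 were the exception, at 52.2% against 50.3%. Base composition also differed between gene families. The 127 broad promoter peaks of olfactory receptor genes had 30.9% ± 5.6 GC (SD over peaks), and the 252 at other genes had 39% ± 8.57. Both groups join pooled and single-library lists, so the same place can be counted more than once (the 127 peaks are at 103 genes). The SD is thus not one over separate places. All curated olfactory receptor promoters averaged 35.3% at the median offset of these peaks, and the promoters of other genes 47.7%. The broad members thus lay below the promoters of their own kind in both groups. No test was made of these values.

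**Figure D4:**
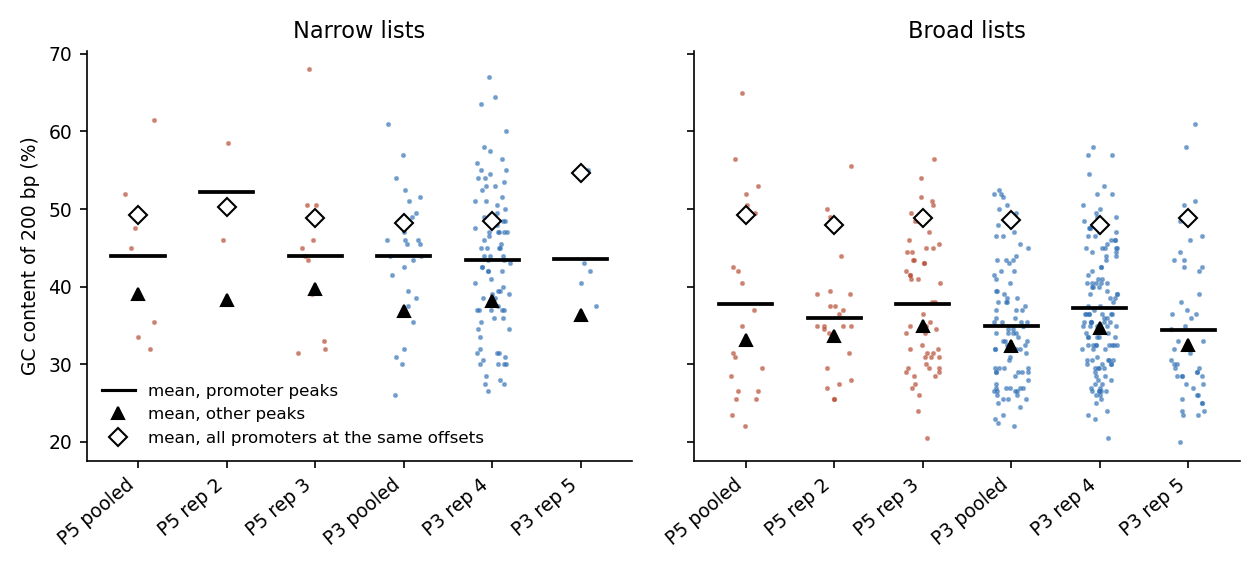
GC content of the 200 bp around the center of each promoter peak (dots, P5 in red and P3 in blue), with its mean (bar), the mean of the other peaks of the same list (triangle) and the mean of all curated promoters at the same offsets from the TSS (diamond). The bar stands above the triangle in all 12 lists and below the diamond in all except P5 replicate 2 narrow, which rests on 2 peaks.

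E-boxes were more frequent in promoter peaks than in other peaks of some libraries and less frequent in others. A flexible E-box was present in the 200 bp around the center of 0 of 2 narrow promoter peaks in P5 replicate 2, 7 of 11 in P5 replicate 3 (63.6%), 32 of 88 in P3 replicate 4 (36.4%) and 2 of 5 in P3 replicate 5 (40%), against 38.1% to 41.7% of other peaks. The mean difference was -5.03 ± 26.2 percentage points (exact sign-flip permutation test over 4 libraries, p = 0.75), and it turned to 6.93 without P5 replicate 2. In the broad lists the share was 24% in P5 replicate 2, 39.3% in P5 replicate 3, 36.8% in P3 replicate 4 and 40.8% in P3 replicate 5, against 35.2% to 38.2% of other peaks. The difference there was -1.44 ± 8.11 (p = 1 in the same exact permutation test), and it turned to 2.46 without P5 replicate 2. Both had an adjusted p of 1. Of all curated promoters at the same offsets, 27.9% to 33.5% held a flexible E-box.

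In the pooled lists, which are no independent sample, 1 of 7 narrow promoter peaks at P5 and 16 of 27 at P3 (59.3%) held a flexible E-box, against 39% and 38.9% of the other peaks. The 16 included Gphb5, Gfra4, Rcan3, Rgs3, Acyp1 and Rassf1. CACGTG itself was found within the 200 bp of 2 of the 27, Rcan3 and Rassf1, and it lies inside the called peak at Rcan3 only. Of all curated promoters at the offsets of this list, 3.21% held CACGTG. In P3 replicate 4 it was found at Abcc10, a membrane transporter gene (23 tags), Psmb2, a proteasome subunit gene (20 tags), and Akap11, an anchoring protein gene of protein kinase A (18 tags). These were 3 of 88 (3.41%), against 1.57% of other peaks and 3.32% of all curated promoters at the same offsets. None of these 3 was in a pooled narrow promoter list. This does not set them apart, since only 9 pooled P3 narrow promoter peaks overlap a narrow peak of this library, which has 88 narrow promoter peaks. In the broad lists 0% to 5.36% of promoter peaks held CACGTG, against 0.913% to 1.18% of other peaks and 3.21% to 3.53% of all curated promoters.

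Scores of promoter peaks were close to those of other peaks. The median score of narrow promoter peaks was 3.63, against 3.55 in other peaks, in P5 replicate 2 and 3.08 against 3.22 in P5 replicate 3. It was 3.63 against 3.63 in P3 replicate 4 and 3.5 against 3.35 in P3 replicate 5 (mean difference 0.0225, exact sign-flip permutation test, p = 0.75), and the sign of this difference turned without P3 replicate 5 (-0.02). For broad peaks the medians were equal in 3 libraries and 5.8 against 5.62 in P3 replicate 4 (mean difference 0.045, p = 1 in the same exact permutation test). Both had an adjusted p of 1. Most broad promoter peaks were no wider than the minimum, which 80% to 96% of them had, against 84.4% to 90.3% of other broad peaks.

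Promoter peaks lay at varied distances from the TSS, within the window that the annotation itself sets. Among peaks whose annotated start site was found within this window, the median center of the narrow ones was at -386 bp from the TSS in P5 replicate 2, -512 bp in P5 replicate 3, -532 bp in P3 replicate 4 and -106 bp in P3 replicate 5. It was at -701 bp in pooled P5 and -806 bp in pooled P3. The broad ones had medians of -568 bp in P5 replicate 2, -508 bp in P5 replicate 3, -646 bp in P3 replicate 4 and -472 bp in P3 replicate 5. Narrow and broad calls on the same reads often differed. A broad peak was overlapped by 0 of 7 narrow promoter peaks of pooled P5, 4 of 27 in pooled P3 and 21 of 88 in P3 replicate 4. All narrow peaks of those lists gave 17.9%, 22.8% and 32.1%. It was 1 of 2 in P5 replicate 2, 3 of 11 in P5 replicate 3 and 1 of 5 in P3 replicate 5, against 32.5%, 27% and 33.8%. The promoter shares thus lie on both sides of those of all narrow peaks. Fzd6 was called in both ways, with 34 tags as a narrow and 51 as a broad peak of pooled P3, and with 23 and 33 in P3 replicate 4.

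**Figure D5:**
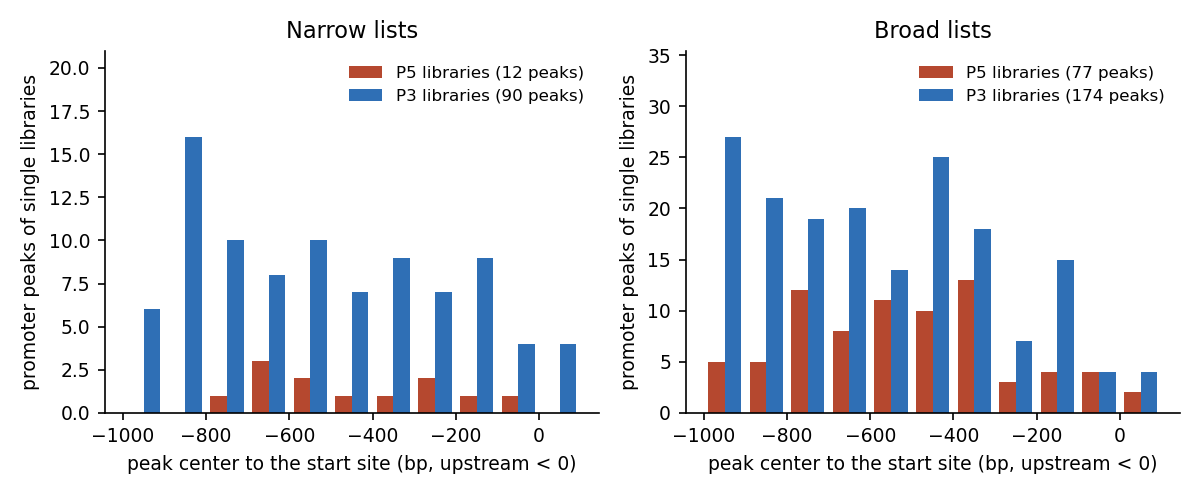
Number of promoter peaks of the single libraries by the distance of the peak center to the TSS of the annotated gene, in bins of 100 bp, for narrow lists (left) and broad lists (right), P5 in red and P3 in blue. Peaks are found in most bins upstream of the TSS. The window, 1000 bp upstream and 100 bp downstream, comes from the rule that chose the peaks, so the smaller number downstream follows from it.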

How the data were processed

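Bmal1 ChIP-seq peaks of mouse retina were analysed as deposited. Per the labels and the Reporting Summary, the authors used bcl2fastq, trimmed reads with Trim Galore, aligned them to GRCm38 (mm10) with Bowtie (labels) or bowtie2 (Reporting Summary) and called peaks with MACS2. The file headers name HOMER's annotatePeaks with mm10. The labels also list hg38. For tool versions and peak thresholds, none is stated in what was read. The caller is therefore unsettled. The deposited peak score is taken as normalized by the authors to 10 M tags, from its steps, and the deposited distance to the TSS is in bp. Tags were recovered as whole multiples of the smallest score step, within 0.0052. This gave 55.2 to 68.3 M tags per library and 130.3 and 120.9 M in the pooled P5 and P3 lists. The library values are above the sequencing depth that the Reporting Summary states.

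Members were the rows annotated promoter-TSS. The other 2 score columns, of all Bmal1 libraries pooled, belong to no sample and were not used, nor were the authors' gene lists. Of the 519 accessions, 508 were matched to RefSeq of GRCm38.p6, 12 peaks lay outside the window of the start site there, and 23 had a nearest start site of another gene. Gene names are those of RefSeq, which replaced 2 names stored as dates. GC content and E-boxes were read in 200 bp around peak centers, and copies with 31-base words. Ages were compared with exact permutation tests, and promoter with other peaks by the difference within each library, with a sign-flip test (threshold 0.05). Intervals are 95% Clopper-Pearson.

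Named genes are those of every pooled narrow promoter peak, of the 10 highest pooled broad ones per age, of peaks that overlap another library, and clock genes with a promoter peak. Other genes of single libraries, those with CACGTG or repeated sequence among them, were named after their values were seen. Another gene list and its result are not reported here. The members and lists were chosen with earlier results of these data known. Alternatives were a curated RefSeq window, the upper 50% of the scores, leaving out each library, the called peak itself, CACGTG alone, an overlap of 50% of the shorter peak and centers within 1000 bp. Functions were tested on simulated data. Calculations used Python 3.11.15, numpy 2.4.6, pandas 2.3.3, scipy 1.17.1, numba 0.67.0 and matplotlib 3.10.9.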

Additional observations from a re-analysis of the deposited data

How the results depend on the processing

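Of 74 alternatives over 14 results, 64 were counted as keeping the direction of a difference or leaving a share inside its interval. Some of the 64 could not have come out otherwise. With 0 of 106 narrow promoter peaks in another library, a stricter overlap, fewer peaks or fewer libraries could only give 0. The pooled narrow interval at P5, 9.9 to 81.6, holds most shares. The broad score difference without P3 replicate 4 was 0 and is among the 64. With the curated RefSeq window the narrow E-box difference was 1.28 percentage points, and with CACGTG alone the broad one was 1.34. The difference in narrow promoter share (P5 minus P3) was 0.559 percentage points with the curated RefSeq window, against 0.186 as reported. Among the pooled promoter peaks in the upper 50% of the scores, 77.8% of the broad and 33.3% of the narrow ones at P5, and 51.1% of the broad and 61.5% of the narrow ones at P3, were found in a library of the same age, against 63.6%, 26.1%, 51.4% and 33.8% of all such peaks. Leaving out each library in turn gave -0.0105 to 0.382 for the narrow promoter share (P5 minus P3), -0.153 to 0.0756 for the broad one, -0.02 to 0.0767 for the narrow score difference, -14 to 6.93 for the narrow and -3.79 to 2.46 for the broad E-box difference. It gave 1.45% to 7.14% for broad promoter peaks found in another library. The GC difference stayed positive under every alternative run, at 5.62 to 8.85 percentage points in narrow and 2.27 to 2.57 in broad peaks when a library was left out. The causes of these changes were not tested. P5 replicate 2 has 2 narrow promoter peaks, which limits its values. No paired analysis was possible because the ages share no replicate number.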
